A study of Mus musculus with 20 samples.

Results

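The genes described here are those of the interleukin-1 (IL-1) system in mouse skin: the cytokine genes Il1a, Il1b, Il18 and Il33, the antagonist gene Il1rn, the receptor genes Il1r1, Il1r2 and Il1rl1, and the inflammasome genes Casp1 and Nlrp3. They were chosen by name, with earlier results of these data known, and each was represented by the array feature that carries its symbol alone. Of the 10 genes named, 9 were measured, out of 22180 genes on the arrays; Il1rl1, which encodes the IL-33 receptor ST2, had no such feature and was not measured. Abdominal skin of 20 C57/B6 mice aged 9 weeks was profiled, 1 array per mouse and 5 mice per group. HFD-IMQ mice ate a high fat diet and received imiquimod (IMQ) cream, HFD-vehicle mice ate the same diet and received vehicle, CD-IMQ mice ate control chow and received IMQ cream, and CD-vehicle mice ate chow and received vehicle. Every mouse had its abdomen shaved and treated once a day for 5 days, with 62.5 mg of the 5% cream in the IMQ groups, and skin was collected 24 h later. Imiquimod is an agonist of Toll-like receptor 7 whose cream produces a psoriasis-like dermatitis in mice.

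IL-1 alpha and IL-1 beta act through the same receptor, encoded by Il1r1, and the antagonist encoded by Il1rn occupies that receptor without signalling. The receptor encoded by Il1r2 binds IL-1 but lacks the signalling domain and so acts as a decoy. IL-1 beta and IL-18 are made as precursors that caspase-1 cleaves in inflammasomes, protein platforms built by sensors such as NLRP3 with the adaptor ASC, whereas IL-1 alpha and IL-33 are active without that step and are released as alarm signals from damaged epithelial and stromal cells. Keratinocytes store IL-1 alpha and IL-18, and IL-1 beta in inflamed skin comes mostly from myeloid cells. The arrays report mRNA, so neither cleavage nor release of these proteins was measured.

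The values are log2 intensities, and the medians of the 20 arrays lay between 2.86 and 3.04, a level taken here as near background. Of the 9 measured genes 8 lay above 3.04 on all 20 arrays. The exception was Nlrp3, which lay below it on all 20, so its differences were measured near background and their sizes are uncertain. Of 11 measured epidermal keratinocyte markers, 10 averaged above 3.04 in every group, Krt2 being the other. HFD-vehicle 3 stood apart, with 42.8% of the summed squared distances to the HFD-vehicle mean; it is named among the arrays wherever a call ended without it. Fits are those of limma over all 20 arrays, a call means a Benjamini-Hochberg adjusted p below 0.05 over all 22180 genes, and the standard error follows each log2 change after the ± sign. In bulk skin fewer cells of a type and less RNA per cell cannot be told apart.

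The stretch of 250 bases before the transcription start is shown for the 3 cytokine genes with the largest rises on the high fat diet and for the antagonist gene. RefSeq sequences of build GRCm38.p6 were used, which covered all 9 measured genes in 14 windows, since some have several starts. Capitals mark matches, on either strand, to the TATA box letters TATAAA and the AP-1 letters TGANTCA; the NF-kB consensus motif was searched as well and is in none of the 4 windows shown, and no match overlaps another. The windows are Il1b (chr2:129371140-129371389, minus strand), Il1a (chr2:129309973-129310222, minus strand), Il33 at its downstream start (chr19:29945540-29945789, plus strand) and Il1rn at its upstream start (chr2:24336610-24336859, plus strand).
Il1b: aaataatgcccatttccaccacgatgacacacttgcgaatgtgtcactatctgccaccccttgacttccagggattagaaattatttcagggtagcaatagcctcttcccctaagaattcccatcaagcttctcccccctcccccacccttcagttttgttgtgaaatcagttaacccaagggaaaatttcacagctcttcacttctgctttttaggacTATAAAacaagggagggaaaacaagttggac
Il1a: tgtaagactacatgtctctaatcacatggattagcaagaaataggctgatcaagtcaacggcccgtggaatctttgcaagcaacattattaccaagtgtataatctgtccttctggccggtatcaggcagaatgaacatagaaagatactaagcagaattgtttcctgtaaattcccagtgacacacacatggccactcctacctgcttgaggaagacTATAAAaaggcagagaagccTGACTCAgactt
Il33: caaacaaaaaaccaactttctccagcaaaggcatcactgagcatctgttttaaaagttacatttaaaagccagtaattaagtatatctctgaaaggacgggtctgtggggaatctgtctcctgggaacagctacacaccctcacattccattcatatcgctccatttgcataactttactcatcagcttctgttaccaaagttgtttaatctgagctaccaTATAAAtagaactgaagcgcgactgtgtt
Il1rn: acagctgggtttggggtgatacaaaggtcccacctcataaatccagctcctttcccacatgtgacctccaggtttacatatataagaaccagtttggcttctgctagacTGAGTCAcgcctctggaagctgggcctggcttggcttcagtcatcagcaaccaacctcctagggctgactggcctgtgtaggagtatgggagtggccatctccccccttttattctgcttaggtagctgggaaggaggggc
The TATA box letters lay 31 to 26 bases before the start of Il1b, 32 to 27 bases before that of Il1a and 29 to 24 bases before that of Il33. AP-1 letters lay 12 to 6 bases before the start of Il1a and 141 to 135 bases before that of Il1rn. Over all 32851 promoter windows of this length, 12.4% held TATAAA, 6.75% TGANTCA and 7.25% the NF-kB motif. The NF-kB motif was found in 2 of the 14 windows, 1 of Il1r1 and 1 of Nlrp3. These matches describe letters only and were not related to the expression values.

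With IMQ cream most of these genes were higher and the decoy receptor gene Il1r2 was lower. In HFD-fed mice 8 of 9 genes passed the test, 7 higher and 1 lower in HFD-IMQ, where 5.89% of all genes passed, 3.65% higher and 2.24% lower. In CD-fed mice 6 of 9 passed, 4 higher and 2 lower in CD-IMQ, where 10.9% of all genes passed, 3.91% higher and 7.02% lower. Il1a, Il1rn, Il18 and Casp1 rose on both diets, Il1b, Il33 and Nlrp3 passed in HFD-fed mice, Il1r1 passed in CD-fed mice, and Il1r2 fell on both. The median log2 change over the 9 genes was 0.72 in HFD-fed and 0.50 in CD-fed mice, beside medians over all genes of -0.00070 and 0.016. No difference of the cream's effect between the diets passed for any of the 9 genes, as described further on. Leaving out single arrays left between 4 and 8 genes called in HFD-fed mice, 5 without HFD-vehicle 3, and 5 or 6 in CD-fed mice. The HFD count was 4 without HFD-IMQ 1 or HFD-IMQ 5, and 5 without HFD-vehicle 2, 3, 4 or 5 or HFD-IMQ 3.

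**Figure D1:**
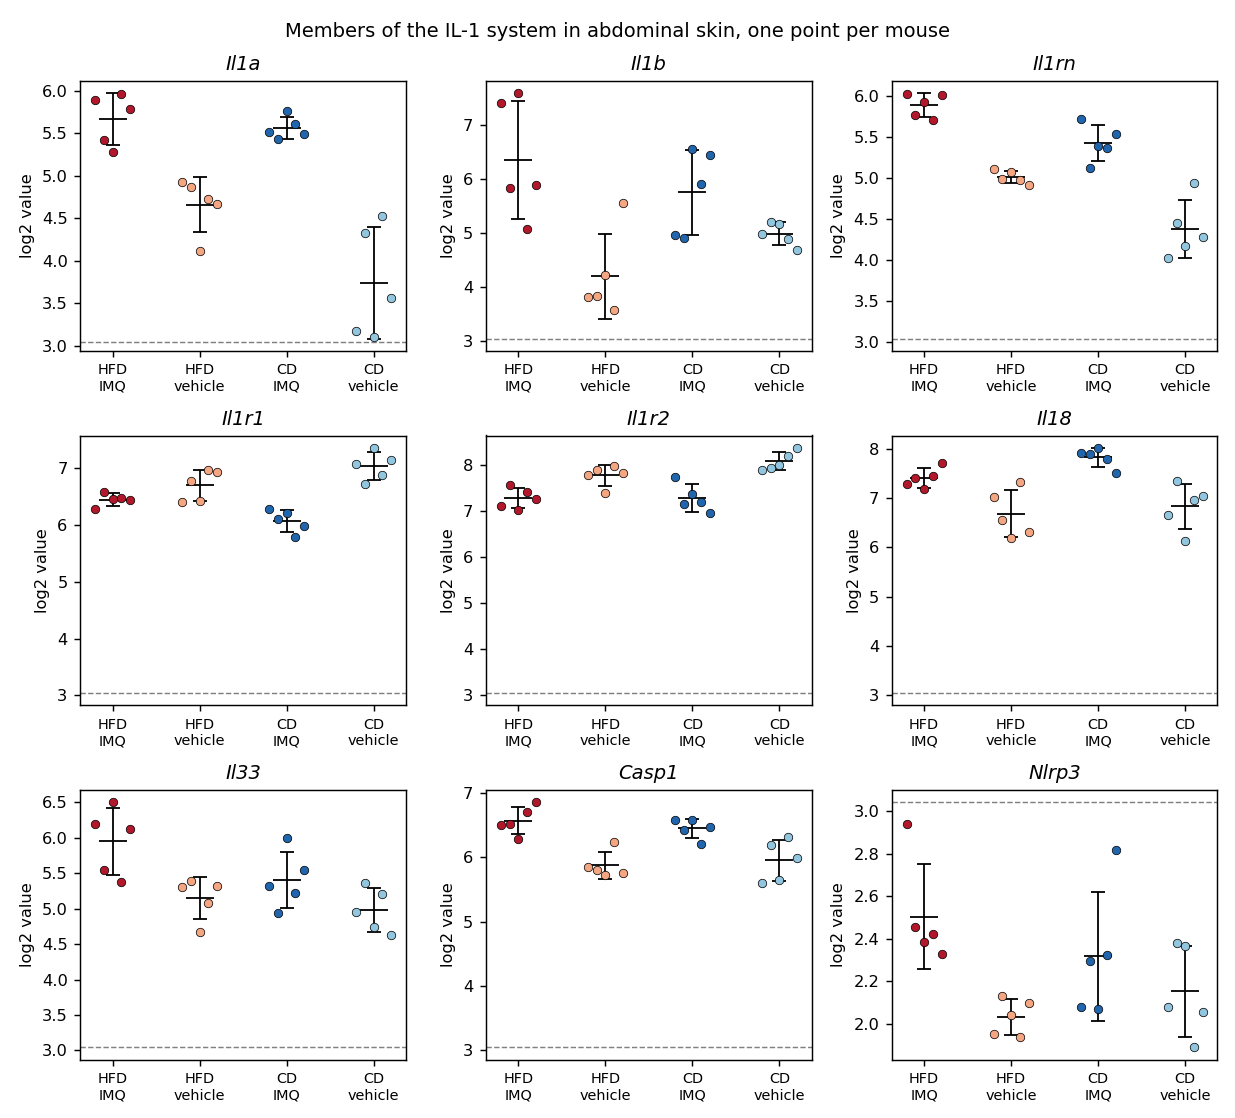
Log2 values of the 9 measured genes (vertical axis) in the 4 groups (horizontal axis), a point per mouse with the group mean and SD, and the highest array median, 3.04, as a dashed line. Il1a and Il1rn are higher in all IMQ mice than in any vehicle mouse of the same diet, Il1b is spread widely in HFD-IMQ, and Nlrp3 lies below the dashed line throughout.

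Il1a, the cytokine stored by keratinocytes, had log2 values of 5.89, 5.42, 5.28, 5.96 and 5.78 in HFD-IMQ mice 1 to 5, against 4.93, 4.87, 4.12, 4.73 and 4.67 in HFD-vehicle mice 1 to 5. All IMQ values lay above all vehicle values. Il1a rose 2.01-fold in HFD-fed mice (log2 change 1.0 ± 0.23, limma adjusted p = 0.00702). On chow its values were 5.52, 5.43, 5.76, 5.61 and 5.49 in CD-IMQ mice 1 to 5, against 3.18, 4.33, 3.11, 4.52 and 3.56 in CD-vehicle mice 1 to 5. Again the groups did not overlap, and the CD-IMQ mice lay close together while CD-vehicle 1 and 3 were close to the array medians. The rise was 3.54-fold (log2 change 1.82 ± 0.23, limma adjusted p = 9.72e-06), from a baseline near background in those 2 mice. Groups that do not overlap were found for 6.06% of all genes in HFD-fed and 8.89% in CD-fed mice.

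Il1b, the inflammasome-processed cytokine of myeloid cells, had log2 values of 7.41, 5.83, 7.59, 5.08 and 5.89 in HFD-IMQ mice 1 to 5, against 3.81, 3.83, 4.22, 3.57 and 5.56 in HFD-vehicle mice 1 to 5. HFD-IMQ 1 and 3 were highest, and HFD-vehicle 5 was the only vehicle mouse of this diet that reached the HFD-IMQ range. Il1b rose 4.48-fold in HFD-fed mice (log2 change 2.16 ± 0.43, limma adjusted p = 0.00237), a call kept under each of the 28 alternatives. On chow it had 4.96, 4.91, 6.56, 5.91 and 6.44 in CD-IMQ mice 1 to 5, against 4.99, 5.20, 5.18, 4.89 and 4.68 in CD-vehicle mice 1 to 5. CD-IMQ 3, 4 and 5 lay above all CD-vehicle mice and CD-IMQ 1 and 2 among them. The log2 change of 0.77 ± 0.43 did not pass (limma adjusted p = 0.291, 95% interval -0.12 to 1.66).

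Il1rn, which encodes the antagonist of the IL-1 receptor, had log2 values of 6.02, 5.77, 5.93, 5.71 and 6.02 in HFD-IMQ mice 1 to 5, against 5.11, 4.98, 5.07, 4.98 and 4.91 in HFD-vehicle mice 1 to 5. Its spread within each of these groups was small, and they did not overlap. On chow the values were 5.72, 5.12, 5.39, 5.37 and 5.53 in CD-IMQ mice 1 to 5, against 4.03, 4.45, 4.17, 4.94 and 4.28 in CD-vehicle mice 1 to 5. These groups did not overlap either. Il1rn rose 1.84-fold in HFD-fed mice (log2 change 0.88 ± 0.14, limma adjusted p = 0.000259) and 2.07-fold in CD-fed mice (log2 change 1.05 ± 0.14, limma adjusted p = 2.37e-05).

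Both receptor genes fell on chow. Il1r1, which encodes the signalling receptor, had log2 values of 6.27, 6.58, 6.46, 6.48 and 6.44 in HFD-IMQ mice 1 to 5, against 6.40, 6.77, 6.42, 6.96 and 6.94 in HFD-vehicle mice 1 to 5. These groups overlapped and the change did not pass (log2 change -0.25 ± 0.14, limma adjusted p = 0.369, 95% interval -0.53 to 0.03). On chow it had 6.27, 6.11, 6.22, 5.79 and 5.97 in CD-IMQ mice 1 to 5, against 7.07, 6.73, 7.36, 6.88 and 7.14 in CD-vehicle mice 1 to 5. Every CD-IMQ mouse lay below every CD-vehicle mouse, and Il1r1 was 1.95-fold lower in CD-IMQ (log2 change -0.97 ± 0.14, limma adjusted p = 4.71e-05).

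Il1r2, the decoy receptor gene, had log2 values of 7.11, 7.55, 7.02, 7.41 and 7.26 in HFD-IMQ mice 1 to 5, against 7.77, 7.88, 7.40, 7.98 and 7.81 in HFD-vehicle mice 1 to 5. The groups overlapped, with 3 HFD-IMQ mice below all HFD-vehicle mice. On chow it had 7.74, 7.15, 7.36, 7.18 and 6.95 in CD-IMQ mice 1 to 5, against 7.89, 7.92, 8.0, 8.20 and 8.37 in CD-vehicle mice 1 to 5, and these groups did not overlap. Il1r2 was 1.74-fold lower in CD-IMQ than in CD-vehicle (log2 change -0.80 ± 0.15, limma adjusted p = 0.000808) and 1.41-fold lower in HFD-IMQ than in HFD-vehicle (log2 change -0.50 ± 0.15, limma adjusted p = 0.0434). The call in HFD-fed mice ended without HFD-IMQ 1, HFD-IMQ 3, HFD-IMQ 5, HFD-vehicle 1, HFD-vehicle 2, HFD-vehicle 4, HFD-vehicle 5 or CD-IMQ 3 (adjusted p between 0.0519 and 0.12), and also with the arrays centred on their medians (limma adjusted p = 0.0773) or with only the compared groups in the fit (adjusted p = 0.0546).

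Il18, another precursor cytokine of keratinocytes, had log2 values of 7.29, 7.41, 7.19, 7.44 and 7.72 in HFD-IMQ mice 1 to 5, against 7.03, 6.56, 6.20, 7.33 and 6.32 in HFD-vehicle mice 1 to 5. HFD-vehicle 4 was the only vehicle mouse of this diet that reached the HFD-IMQ range. On chow it had 7.91, 7.89, 8.02, 7.79 and 7.51 in CD-IMQ mice 1 to 5, against 6.66, 7.35, 6.14, 6.95 and 7.05 in CD-vehicle mice 1 to 5, with no overlap. Il18 rose 1.65-fold in HFD-fed mice (log2 change 0.72 ± 0.21, limma adjusted p = 0.0365) and 1.99-fold in CD-fed mice (log2 change 1.0 ± 0.21, limma adjusted p = 0.00242). The call in HFD-fed mice ended without HFD-IMQ 1, HFD-IMQ 2, HFD-IMQ 4, HFD-IMQ 5, HFD-vehicle 2, HFD-vehicle 3 or HFD-vehicle 5 (adjusted p between 0.0571 and 0.109), after a further quantile normalization (limma adjusted p = 0.0538) and with only the compared groups (adjusted p = 0.0552).

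Il33, which encodes a nuclear alarm cytokine, had log2 values of 6.19, 5.55, 6.50, 5.38 and 6.12 in HFD-IMQ mice 1 to 5, against 5.30, 5.39, 4.66, 5.08 and 5.32 in HFD-vehicle mice 1 to 5. HFD-IMQ 4 was the only mouse of its group inside the HFD-vehicle range. On chow it had 5.31, 4.94, 5.99, 5.22 and 5.55 in CD-IMQ mice 1 to 5, against 4.95, 5.36, 4.74, 5.21 and 4.62 in CD-vehicle mice 1 to 5, and 3 of the 5 CD-IMQ mice lay inside the CD-vehicle range. Il33 rose 1.74-fold in HFD-fed mice (log2 change 0.80 ± 0.21, limma adjusted p = 0.0253). That call was lost without HFD-IMQ 1, HFD-IMQ 3, HFD-IMQ 5, HFD-vehicle 3 or HFD-vehicle 4 (adjusted p between 0.0538 and 0.0852). The change on chow did not pass (log2 change 0.43 ± 0.21, limma adjusted p = 0.231, 95% interval -0.02 to 0.87).

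Casp1, the gene of the protease that cleaves IL-1 beta and IL-18, had a mean log2 value of 6.57 ± 0.22 in HFD-IMQ and 5.87 ± 0.21 in HFD-vehicle, and 6.45 ± 0.15 in CD-IMQ and 5.95 ± 0.32 in CD-vehicle (SD, n = 5 each). In HFD-fed mice the IMQ values, 6.29 to 6.86, lay above the vehicle values, 5.72 to 6.25, and on chow 6.20 to 6.58 in CD-IMQ overlapped with 5.60 to 6.31 in CD-vehicle. Casp1 rose 1.62-fold in HFD-fed mice (log2 change 0.70 ± 0.14, limma adjusted p = 0.0033) and 1.41-fold in CD-fed mice (log2 change 0.50 ± 0.14, limma adjusted p = 0.0265). The call on chow ended without CD-IMQ 1, CD-IMQ 3, CD-IMQ 5, CD-vehicle 1 or CD-vehicle 3 (adjusted p between 0.0551 and 0.0833) and with the arrays centred on their medians (limma adjusted p = 0.0545).

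Nlrp3, the gene of the sensor protein, spanned log2 values of 2.33 to 2.94 in HFD-IMQ and 1.94 to 2.13 in HFD-vehicle, and 2.07 to 2.82 in CD-IMQ and 1.89 to 2.38 in CD-vehicle. The HFD groups did not overlap and the CD groups did. The log2 change passed in HFD-fed mice at 0.47 ± 0.14 (limma adjusted p = 0.0483) and did not pass on chow at 0.16 ± 0.14 (limma adjusted p = 0.53). All these values lie below the highest array median, 3.04, and the call ended without HFD-IMQ 1, HFD-IMQ 2, HFD-IMQ 3, HFD-IMQ 4, HFD-IMQ 5, HFD-vehicle 1, HFD-vehicle 2, HFD-vehicle 3, HFD-vehicle 4, HFD-vehicle 5, CD-IMQ 2, CD-IMQ 4, CD-vehicle 1 or CD-vehicle 5 (adjusted p between 0.051 and 0.162).

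**Figure D2:**
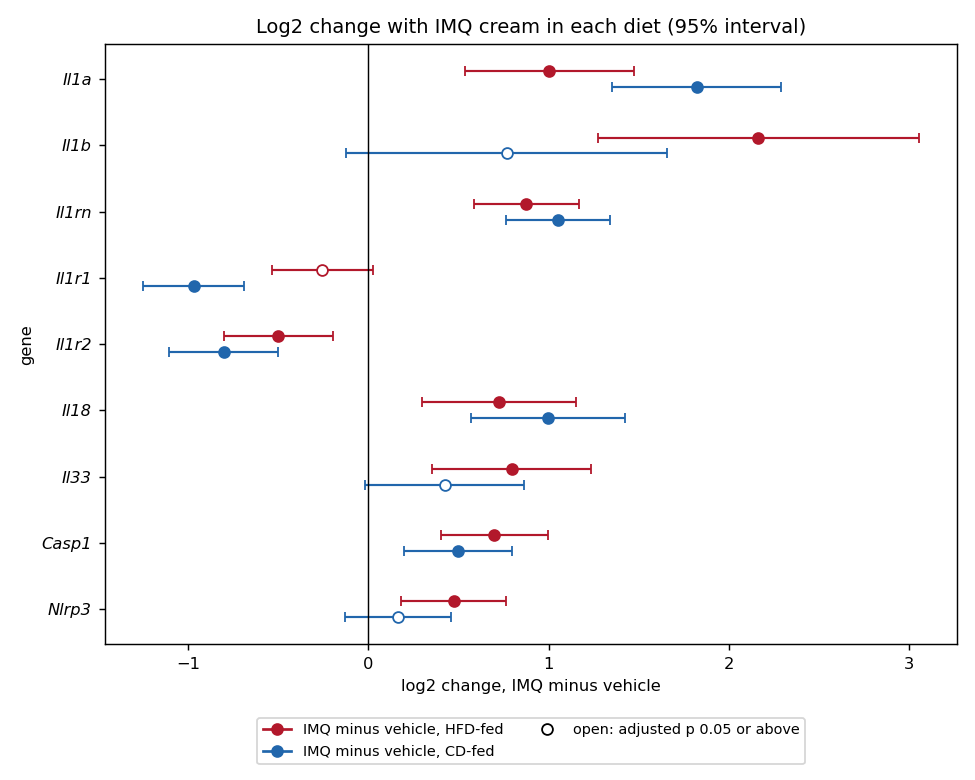
Log2 change of each gene, IMQ minus vehicle (horizontal axis), in HFD-fed mice (red) and CD-fed mice (blue), with 95% intervals; filled points passed at an adjusted p below 0.05. Il1a, Il1rn, Il18 and Casp1 lie right of 0 and filled on both diets, and Il1r2 left of 0 and filled on both.

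The diet comparison asked how the same genes differed between high fat diet and chow. In vehicle-treated skin 2 of 9 genes passed, both higher in HFD-vehicle, where 2.18% of all genes passed and 1.22% were called higher. Il1a averaged 4.66 ± 0.32 in HFD-vehicle and 3.74 ± 0.65 in CD-vehicle (SD, n = 5 each), 1.89-fold higher (log2 change 0.92 ± 0.23, limma adjusted p = 0.0326). Il1rn averaged 5.01 ± 0.08 in HFD-vehicle and 4.37 ± 0.35 in CD-vehicle, 1.55-fold higher (log2 change 0.64 ± 0.14, limma adjusted p = 0.0157). For each gene 4 of 5 HFD-vehicle mice lay above every CD-vehicle mouse. The Il1a call ended without HFD-vehicle 1, HFD-vehicle 2, HFD-vehicle 4, CD-vehicle 1, CD-vehicle 3 or CD-vehicle 5 (adjusted p between 0.0562 and 0.117), the Il1rn call without CD-vehicle 3 (adjusted p 0.0579), and both with only the compared groups in the fit (limma adjusted p = 0.131 for Il1a and 0.0756 for Il1rn).

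Hair follicle and epidermal markers differed in the same comparison, in which 1.22% of all genes were called higher. Of 12 hair follicle markers 11 were higher in HFD-vehicle than in CD-vehicle, with a median log2 change of 2.91, and their summed linear intensity spanned 2129 to 13960 in HFD-vehicle and 100 to 848 in CD-vehicle. Of 11 epidermal keratinocyte markers 4 were higher in HFD-vehicle, with sums of 4900 to 7707 in HFD-vehicle and 2602 to 4815 in CD-vehicle. With the cream the same 12 follicle markers spanned sums of 86.3 to 259 in HFD-IMQ and 101 to 122 in CD-IMQ, and 11 of them fell in HFD-fed and 5 in CD-fed mice, beside 2.24% and 7.02% of all genes. The part of these shifts in the differences of Il1a and Il1rn was not tested.

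Il1b pointed the other way in vehicle skin without passing. It averaged 4.20 ± 0.79 in HFD-vehicle and 4.99 ± 0.22 in CD-vehicle (SD, n = 5 each; log2 change -0.79 ± 0.43, limma adjusted p = 0.417, 95% interval -1.68 to 0.10), and 4 of 5 HFD-vehicle mice lay below every CD-vehicle mouse. The receptor genes Il1r1 (log2 change -0.34 ± 0.14, limma adjusted p = 0.224) and Il1r2 (-0.31 ± 0.15, adjusted p = 0.324) did not pass either. For Il18, Il33, Casp1 and Nlrp3 the log2 changes lay between -0.14 and 0.18, and the lowest of their adjusted p-values was 0.774.

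In IMQ-treated skin 0 of 9 genes passed by limma, as did 0.0% of all genes. At an unadjusted limma p below 0.05 there were 3 of 9, beside 10.3% of all genes. The 3 were Il1rn, at 5.89 ± 0.14 in HFD-IMQ and 5.43 ± 0.22 in CD-IMQ (log2 change 0.46 ± 0.14, limma adjusted p = 0.31, 95% interval 0.17 to 0.75), Il1r1, at 6.45 ± 0.11 and 6.07 ± 0.20 in the same groups (0.37 ± 0.14, adjusted p = 0.365), and Il33, at 5.95 ± 0.47 and 5.40 ± 0.39 (0.55 ± 0.21, adjusted p = 0.389). For Il1rn and Il1r1, 4 of 5 HFD-IMQ mice lay above every CD-IMQ mouse. Il18 pointed the other way without passing (log2 change -0.42 ± 0.21, limma adjusted p = 0.5, 95% interval -0.84 to 0.01). For Il18, 4 of 5 HFD-IMQ mice lay below every CD-IMQ mouse. Casp1 differed by 0.12 ± 0.14 and Nlrp3 by 0.19 ± 0.14. Il1a differed by 0.10 ± 0.23 (95% interval -0.36 to 0.57) and Il1r2 by -0.01 ± 0.15 (95% interval -0.31 to 0.29), and the Il1b interval ran from -0.28 to 1.5.

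The group means of Il1a ran from HFD-IMQ (highest) through CD-IMQ and HFD-vehicle to CD-vehicle, and the neighbours HFD-IMQ and CD-IMQ did not differ beyond their spread. Those of Il1rn ran in the same order, with HFD-IMQ and CD-IMQ not called apart. Il1b and Il33 also were highest in HFD-IMQ and next in CD-IMQ, but Il1b was lowest in HFD-vehicle and Il33 in CD-vehicle. Il18 was highest in CD-IMQ, followed by HFD-IMQ, CD-vehicle and HFD-vehicle. Il1r1 and Il1r2 were highest in CD-vehicle and next in HFD-vehicle; Il1r1 was lowest in CD-IMQ, while Il1r2 lay at 7.27 in HFD-IMQ and 7.28 in CD-IMQ.

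The interaction asked whether the cream's effect differed between diets. It passed for 0 of 9 genes by limma, where 0.663% of all genes passed, and 3 of 9 had an unadjusted limma p below 0.05, beside 15.9% of all genes. The log2 change of Il1r1 with the cream was less negative in HFD-fed mice (interaction 0.71 ± 0.19, limma adjusted p = 0.079, 95% interval 0.32 to 1.11), which passed without CD-vehicle 2 (adjusted p = 0.0489). The interaction was 1.40 ± 0.61 for Il1b (limma adjusted p = 0.261, 95% interval 0.14 to 2.65) and -0.82 ± 0.32 for Il1a (limma adjusted p = 0.211, 95% interval -1.48 to -0.16), so these 2 cytokine genes pointed in opposite directions. Neither interaction passed, and that Il1b was called in HFD-fed mice alone does not show a difference between diets. For the other 6 genes it lay between -0.27 and 0.37. The diet comparisons and the interaction share arrays with the IMQ comparisons.

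**Figure D3:**
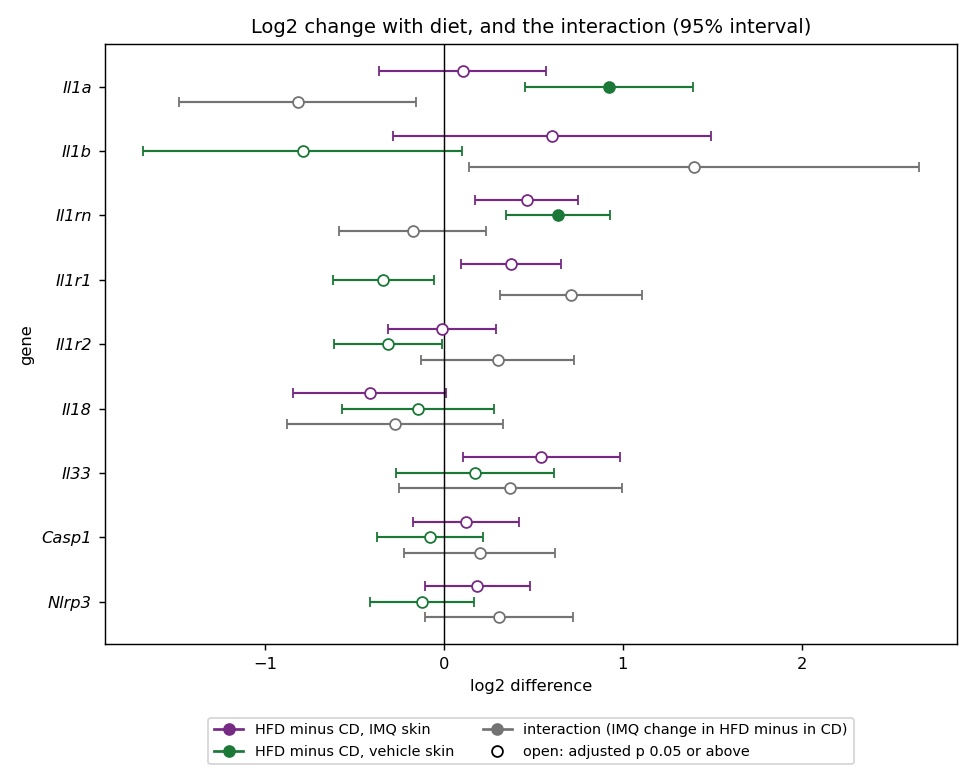
Log2 difference (horizontal axis) of each gene, HFD minus CD in IMQ skin (purple) and in vehicle skin (green), and the interaction (grey), with 95% intervals; filled points passed at an adjusted p below 0.05. Only the vehicle-skin differences of Il1a and Il1rn are filled, and the Il1b intervals are the widest.

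Other genes of the pathway were followed as lists chosen by function, with earlier results of these data known. Of 8 further receptor, accessory chain and decoy genes, 1 rose in HFD-fed mice and 1 fell in CD-fed mice. Of all genes 3.65% rose in HFD-fed mice, and 3.91% rose and 7.02% fell in CD-fed mice. Il18rap, the accessory chain of the IL-18 receptor, rose in HFD-fed mice (log2 change 0.93 ± 0.20, limma adjusted p = 0.0044), from an HFD-vehicle mean of 2.45 below the array medians. Il1rl2, the IL-36 receptor gene, fell in CD-fed mice (-0.58 ± 0.13, adjusted p = 0.00413). Il1rap, the accessory chain shared by the IL-1 and IL-33 receptors, had log2 changes of 0.25 ± 0.12 in HFD-fed and 0.05 ± 0.12 in CD-fed mice and passed in neither. The IL-18 binding protein gene Il18bp (0.31 ± 0.15 and 0.29 ± 0.15) and Il18r1 (-0.09 ± 0.11 and -0.19 ± 0.11) did not pass either. Of 5 measured IL-36 and IL-38 ligand and antagonist genes 4 rose on each diet, Il1f6, Il1f8, Il1f9 and Il1f5. Their log2 changes were 2.17 ± 0.35, 1.69 ± 0.35, 2.15 ± 0.22 and 1.23 ± 0.25 in HFD-fed mice. On chow they were 3.98 ± 0.35, 3.07 ± 0.35, 2.81 ± 0.22 and 2.52 ± 0.25. The interaction was -1.81 ± 0.49, -1.38 ± 0.49, -0.66 ± 0.32 and -1.29 ± 0.36 in the same order. It passed for none of them (lowest limma adjusted p = 0.0839, for Il1f6). That of Il1f6 passed without CD-vehicle 4 or HFD-vehicle 3 (adjusted p between 0.00614 and 0.0146), and that of Il1f5 without CD-vehicle 4 (adjusted p = 0.0335). In vehicle skin Il1f6 (1.88 ± 0.35), Il1f9 (0.98 ± 0.22) and Il1f5 (1.14 ± 0.25) were called higher in HFD-vehicle. The Il1f9 and Il1f5 calls there ended without CD-vehicle 3 or HFD-vehicle 1, and that of Il1f9 also without CD-vehicle 1 or HFD-vehicle 4.

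Of 19 measured signalling genes downstream of the receptors 2 rose and 0 fell in HFD-fed mice, where 3.65% of all genes rose and 2.24% fell. In CD-fed mice 0 rose and 5 fell, where 3.91% of all genes rose and 7.02% fell. The list had median log2 changes of 0.17 in HFD-fed and -0.04 in CD-fed mice. Nfkbia, which encodes an NF-kB inhibitor that NF-kB itself induces, rose in HFD-fed mice (log2 change 0.45 ± 0.13, limma adjusted p = 0.034) and fell in CD-fed mice (-0.42 ± 0.13, adjusted p = 0.0318), and the interaction passed (0.87 ± 0.18, adjusted p = 0.0245). Tnfaip3, which encodes the NF-kB restraining enzyme A20, had a log2 change of 0.04 ± 0.17 in HFD-fed mice and fell in CD-fed mice (-1.21 ± 0.17, limma adjusted p = 4.16e-05), with an interaction of 1.25 ± 0.24 (adjusted p = 0.0154). Both genes were also lower in HFD-vehicle than in CD-vehicle, Nfkbia with a log2 change of -0.70 ± 0.13 (limma adjusted p = 0.00353) and Tnfaip3 with -0.96 ± 0.17 (adjusted p = 0.003). Nfkbiz, an NF-kB cofactor gene, rose in HFD-fed mice (0.60 ± 0.17, adjusted p = 0.0427), and the receptor kinase gene Irak1 (-0.58 ± 0.17), its inhibitory relative Irak3 (-0.51 ± 0.16) and Map3k7 (-0.47 ± 0.12) fell in CD-fed mice. The adaptor gene Myd88 did not pass on either diet (0.31 ± 0.11 in HFD-fed and 0.21 ± 0.11 in CD-fed mice). Without single arrays the list had 0 to 4 rises in HFD-fed mice (0 without HFD-vehicle 1, 2 or 5 or HFD-IMQ 1 or 2, and 4 without HFD-IMQ 4) and 2 to 5 falls in CD-fed mice (2 without CD-IMQ 5 or CD-vehicle 1). The Nfkbia interaction ended without HFD-IMQ 2, HFD-vehicle 1 or CD-IMQ 4 (adjusted p between 0.0518 and 0.0544), its rise in HFD-fed mice without HFD-IMQ 1, HFD-IMQ 2, HFD-vehicle 1, HFD-vehicle 2, HFD-vehicle 4 or HFD-vehicle 5 (adjusted p between 0.0509 and 0.115) and its fall in CD-fed mice without CD-IMQ 1, CD-IMQ 4, CD-IMQ 5, CD-vehicle 1, CD-vehicle 2, CD-vehicle 3 or CD-vehicle 4 (adjusted p between 0.0502 and 0.0892). The Nfkbiz call ended without HFD-IMQ 1, HFD-IMQ 2, HFD-IMQ 5, HFD-vehicle 1, HFD-vehicle 2, HFD-vehicle 4, HFD-vehicle 5, CD-IMQ 1, CD-IMQ 2, CD-IMQ 4 or CD-IMQ 5 (adjusted p between 0.05 and 0.14), the Irak1 call without CD-IMQ 2, CD-IMQ 3, CD-IMQ 5, CD-vehicle 1, CD-vehicle 4 or CD-vehicle 5 (adjusted p between 0.0524 and 0.0847) and the Irak3 call without CD-IMQ 4, CD-IMQ 5, CD-vehicle 1, CD-vehicle 2 or CD-vehicle 3 (adjusted p between 0.062 and 0.108).

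Of 19 further inflammasome sensors, adaptors and regulators 4 rose and 0 fell in HFD-fed mice, and of 6 inflammatory caspases and pore proteins 3 rose there, beside 3.65% of all genes. In CD-fed mice 1 of the 19 rose and 1 fell, and 1 of the 6 rose, beside 3.91% of all genes that rose and 7.02% that fell. Pycard, the gene of the adaptor ASC, rose on both diets (log2 change 0.70 ± 0.13, limma adjusted p = 0.00149 in HFD-fed and 0.64 ± 0.13, adjusted p = 0.00234 in CD-fed mice). Casp4, the gene of caspase-11, which senses bacterial lipopolysaccharide, rose by 1.17 ± 0.18 in HFD-fed mice (limma adjusted p = 0.000131) and by 0.58 ± 0.18 in CD-fed mice (adjusted p = 0.0348). The DNA sensor gene Aim2 rose in HFD-fed mice (1.06 ± 0.17, adjusted p = 0.000359), as did Gsdmd, whose product forms the pores through which IL-1 beta leaves the cell (0.80 ± 0.17, adjusted p = 0.00453), the ATP receptor gene P2rx7 (0.59 ± 0.14, adjusted p = 0.0109) and the membrane rupture gene Ninj1 (0.55 ± 0.11, adjusted p = 0.00402). On chow the log2 changes of these 4 were 0.26 ± 0.17, -0.13 ± 0.17, -0.02 ± 0.14 and 0.15 ± 0.11 in the same order, none of which passed, and no interaction passed for them (lowest limma adjusted p = 0.0732, for Gsdmd, which passed without HFD-IMQ 4 or HFD-vehicle 4 at between 0.0455 and 0.0494). Nek7, whose product assists NLRP3, fell in CD-fed mice (-0.39 ± 0.09, adjusted p = 0.00776) and did not pass in HFD-fed mice (95% interval -0.20 to 0.19). Aim2 averaged 2.96 in HFD-vehicle, near background. In vehicle skin Aim2, Gsdmd, P2rx7 and Ninj1 had lower means in HFD-vehicle than in CD-vehicle. Their log2 changes were -0.40 ± 0.17, -0.62 ± 0.17, -0.35 ± 0.14 and -0.30 ± 0.11, and none passed. The lowest limma adjusted p was 0.0552, for Gsdmd. That difference passed without HFD-IMQ 1, HFD-IMQ 4 or HFD-vehicle 4 (adjusted p between 0.0333 and 0.0442). The Casp4 call on chow ended without CD-IMQ 1, CD-IMQ 2, CD-IMQ 3, CD-vehicle 1, CD-vehicle 2, CD-vehicle 3 or CD-vehicle 5 (adjusted p between 0.053 and 0.0934), and that of Mlkl in HFD-fed mice (0.53 ± 0.14, limma adjusted p = 0.0258) without HFD-IMQ 1, HFD-IMQ 4 or HFD-vehicle 3 (adjusted p between 0.0754 and 0.0911).

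Some of the genes that IL-1 is known to induce were called. Of 18 measured, 5 rose and 0 fell in HFD-fed mice, and 3 rose and 2 fell in CD-fed mice, with median log2 changes of 0.23 and 0.0094. Over all genes 3.65% rose and 2.24% fell in HFD-fed mice, and 3.91% rose and 7.02% fell in CD-fed mice. The acute-phase gene Saa3 (log2 change 5.11 ± 0.34 in HFD-fed and 6.05 ± 0.34 in CD-fed mice) and the siderophore-binding Lcn2 (1.83 ± 0.18 and 2.61 ± 0.18) rose on both diets. Mmp3, a stromal protease gene, rose in HFD-fed mice (log2 change 1.06 ± 0.20, limma adjusted p = 0.00134), as did Ptges, which makes prostaglandin E (0.67 ± 0.17, adjusted p = 0.0164). Ptgs2, the inducible cyclooxygenase gene, fell in CD-fed mice (-1.38 ± 0.34, adjusted p = 0.0104), where it averaged 3.82 in CD-IMQ and 5.20 in CD-vehicle, and was 0.61 ± 0.34 in HFD-fed mice (adjusted p = 0.4). Its CD-vehicle values spanned 3.92 to 6.10. The Ptgs2 interaction did not pass (1.99 ± 0.49, limma adjusted p = 0.0575). It passed without CD-vehicle 4, CD-vehicle 5 or HFD-IMQ 4 (adjusted p between 0.0123 and 0.0372). The monocyte attractant gene Ccl2 also fell in CD-fed mice (-0.88 ± 0.22, adjusted p = 0.0098). In vehicle skin 1 gene of the list was higher and 2 were lower in HFD-vehicle than in CD-vehicle. Of all genes 2.18% passed there and 1.22% were called higher. Lcn2 was higher, with a log2 change of 0.98 ± 0.18 (limma adjusted p = 0.00385). Saa3 did not pass there (1.22 ± 0.34, limma adjusted p = 0.063). It passed without CD-vehicle 1, HFD-vehicle 2 or HFD-IMQ 4 (adjusted p between 0.0253 and 0.0458). Ptgs2 and Ccl2 were the lower ones, with log2 changes of -1.38 ± 0.34 (limma adjusted p = 0.0352) and -0.98 ± 0.22 (adjusted p = 0.018). Without HFD-IMQ 1 the list had 3 rises in HFD-fed mice, Ptges being among those lost (adjusted p = 0.0536); the diet calls ended without HFD-vehicle 1, HFD-vehicle 2, HFD-vehicle 3, HFD-vehicle 4, CD-vehicle 1, CD-vehicle 2 or CD-vehicle 3 for Ptgs2 (adjusted p between 0.0608 and 0.104) and without CD-vehicle 3 for Ccl2 (adjusted p = 0.0661).

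Among 13 proteases that can process IL-1 family cytokines 3 rose in HFD-fed mice, and 1 rose and 1 fell in CD-fed mice. The shares of all genes were 3.65% higher and 2.24% lower in HFD-fed mice, and 3.91% higher and 7.02% lower in CD-fed mice. The granzyme gene Gzma rose in HFD-fed mice (log2 change 1.73 ± 0.27, limma adjusted p = 0.000257), from a mean of 1.74 in HFD-vehicle, below the array medians, and the mast cell chymase gene Cma1 rose (0.64 ± 0.14, adjusted p = 0.00586). In vehicle skin Cma1 was lower in HFD-vehicle than in CD-vehicle (log2 change -0.67 ± 0.14, limma adjusted p = 0.0106). Its means were 6.04 in HFD-IMQ, 5.40 in HFD-vehicle, 5.93 in CD-IMQ and 6.07 in CD-vehicle. The epidermal kallikrein gene Klk7 rose in CD-fed mice (1.52 ± 0.22, adjusted p = 6e-05) and was 0.54 ± 0.22 in HFD-fed mice (adjusted p = 0.186), where it passed without CD-vehicle 3 (adjusted p = 0.0368). Klk7 was also higher in HFD-vehicle than in CD-vehicle (log2 change 1.02 ± 0.22, limma adjusted p = 0.0128). Gzma passed in CD-fed mice as well without HFD-IMQ 4, CD-IMQ 1 or CD-vehicle 2 (adjusted p between 0.034 and 0.0452). The third call in HFD-fed mice, Ctss (adjusted p = 0.0499 by limma), ended without HFD-IMQ 1, HFD-IMQ 2, HFD-IMQ 3, HFD-IMQ 5, HFD-vehicle 1, HFD-vehicle 2, HFD-vehicle 3, CD-IMQ 1, CD-IMQ 2, CD-IMQ 3, CD-IMQ 4, CD-IMQ 5, CD-vehicle 2, CD-vehicle 4 or CD-vehicle 5 (adjusted p between 0.0518 and 0.156), and the fall of Mmp2 on chow (-0.49 ± 0.15) without CD-IMQ 2, CD-IMQ 3, CD-IMQ 4, CD-IMQ 5, CD-vehicle 1, CD-vehicle 3 or CD-vehicle 5 (adjusted p between 0.063 and 0.0959). Of 10 type 2 and IL-33 responsive genes 1 rose and 3 fell in HFD-fed mice, and 1 rose and 2 fell in CD-fed mice. Chil3, a chitinase-like gene of activated macrophages, rose on both (2.80 ± 0.23 in HFD-fed and 1.80 ± 0.23 in CD-fed mice), while Retnla (-2.24 ± 0.29 and -2.04 ± 0.29) and the eosinophil attractant gene Ccl24 (-1.38 ± 0.25 and -1.63 ± 0.25) fell on both, and the transcription factor gene Gata3 fell in HFD-fed mice (-0.80 ± 0.16, limma adjusted p = 0.00275). Without HFD-IMQ 4 or HFD-vehicle 3 the type 2 list had 2 rises on each diet. Of 6 genes of the IL-18 and interferon gamma response 0 passed by limma on either diet, with 2 in HFD-fed and 0 in CD-fed mice at an unadjusted p below 0.05, and 1 passed in HFD-fed mice without HFD-IMQ 1 or HFD-IMQ 2.

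**Figure D4:**
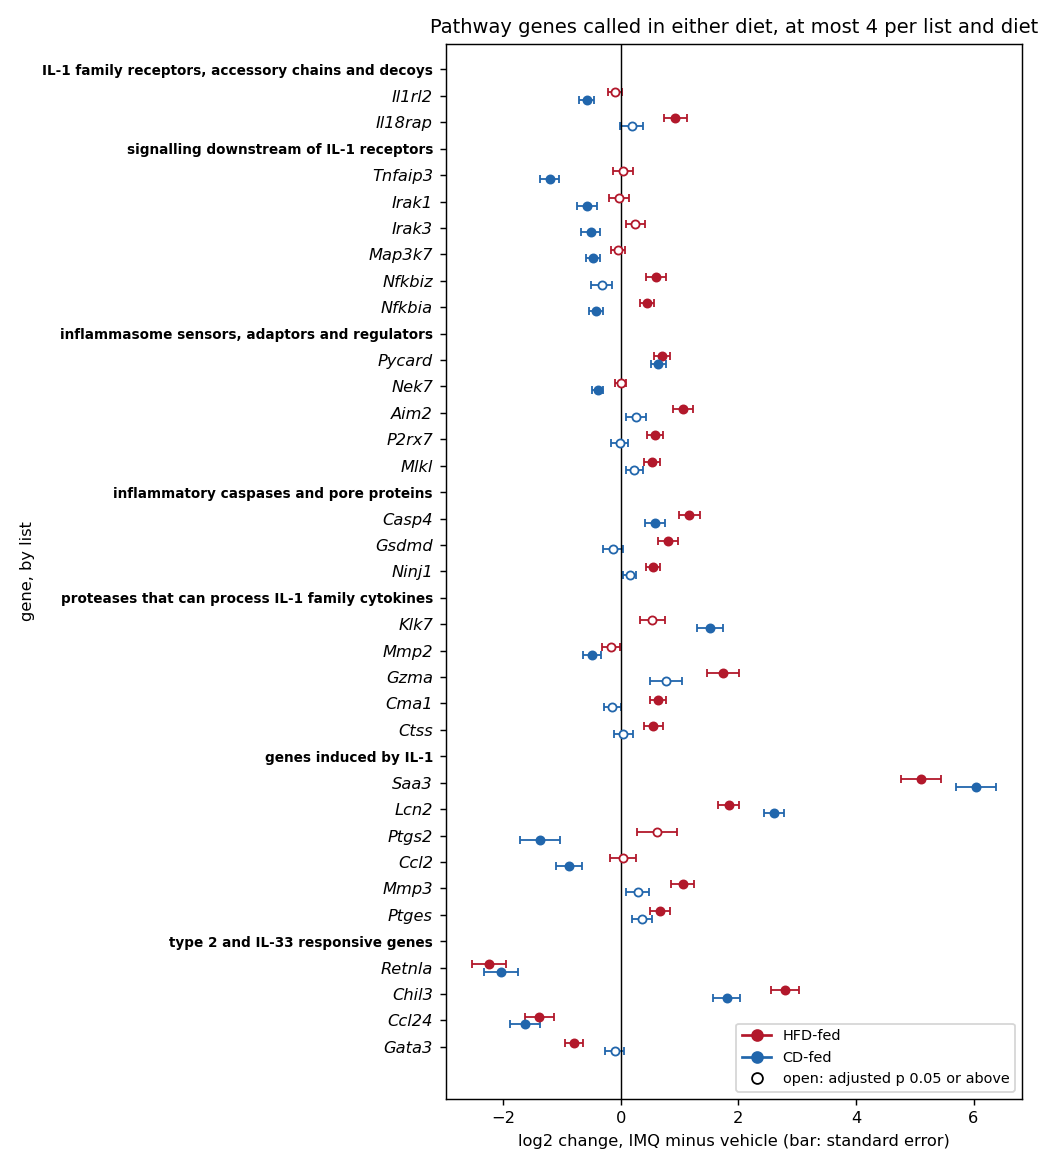
Log2 change, IMQ minus vehicle, with its standard error (horizontal axis) for pathway genes called in at least 1 diet, at most 4 per list and diet, in HFD-fed mice (red) and CD-fed mice (blue). The list of IL-36 and IL-38 ligand and antagonist genes is not drawn. Filled points passed at an adjusted p below 0.05. Nfkbia is filled on both sides of 0, and Pycard, Casp4, Saa3, Lcn2 and Chil3 are filled right of 0 on both diets.

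Markers of the cell types that make or bind these cytokines moved with the cream too. Over all genes 3.65% rose in HFD-fed and 3.91% in CD-fed mice. Of 16 neutrophil markers 10 rose in HFD-fed and 7 in CD-fed mice, and the sum of their linear intensities spanned 1646 to 2510 in HFD-IMQ and 149 to 295 in HFD-vehicle, and 1366 to 1945 in CD-IMQ and 137 to 185 in CD-vehicle. The list holds S100a8, S100a9 and Stfa2l1, which keratinocytes also express; without these 3 it spanned 184 to 285, 94.1 to 124, 137 to 216 and 119 to 134 in the same order. The neutrophil-defining Ly6g and the granule genes Camp, Ltf and Ngp averaged at or below 3.04 in every group. Of 15 macrophage and monocyte markers 12 rose in HFD-fed and 6 in CD-fed mice, their sum spanning 5163 to 7303 in HFD-IMQ and 2649 to 4115 in HFD-vehicle, and 4700 to 5748 in CD-IMQ and 3872 to 4722 in CD-vehicle, with 0 of them near background. Whether the changes of Il1b, Casp1 and the other genes of myeloid cells follow these shifts was not tested.

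Most keratinocyte markers that were called rose, and those of fibroblasts fell. The shares of all genes were 3.65% higher and 2.24% lower in HFD-fed mice, and 3.91% higher and 7.02% lower in CD-fed mice. Between HFD-vehicle and CD-vehicle 2.18% of all genes passed. Of 11 epidermal markers 2 rose and 1 fell in HFD-fed mice, and 7 rose and 1 fell in CD-fed mice, and their sum spanned 7730 to 10930 in HFD-IMQ and 4900 to 7707 in HFD-vehicle, and 7873 to 10680 in CD-IMQ and 2602 to 4815 in CD-vehicle. Of 8 fibroblast markers 3 fell in HFD-fed and 5 in CD-fed mice, their sum spanning 7009 to 10040 in HFD-IMQ and 8809 to 13130 in HFD-vehicle, and 6997 to 8886 in CD-IMQ and 9415 to 12120 in CD-vehicle. The part of these shifts in the changes of Il1a, Il1rn, Il18 and Il1r1 was not tested. Of the other lists, 2 of 10 mast cell markers rose in HFD-fed mice and 2 were lower in HFD-vehicle than in CD-vehicle. Of 11 T, NK and innate lymphoid cell markers 1 rose and 1 fell in HFD-fed and 1 rose in CD-fed mice, and of 11 Langerhans and dendritic cell markers 1 fell on each diet. Of 9 adipocyte markers 1 fell in HFD-fed and 2 in CD-fed mice, and of 8 endothelial markers 1 rose in HFD-fed mice, and 1 rose and 1 fell in CD-fed mice.

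Some pairs of the genes varied together between mice of the same group, and most did not. Deviations from the group means were correlated over the 20 arrays, as a description without a test; the arrays share the 4 group means that were removed and the same normalization. Of 36 pairs 7 had a Pearson r above 0.5 and 2 below -0.5, with a median of 0.078. Casp1 went with Il18 (Pearson r 0.754, Spearman rho 0.806, r 0.65 without the 2 farthest arrays) and with Il1a (Pearson r 0.724, Spearman rho 0.639, r 0.606 without the 2 farthest arrays), and Il1a with Il18 (Pearson r 0.617, Spearman rho 0.588, r 0.573 without the 2 farthest arrays). Il1b went with Il33 (Pearson r 0.646, Spearman rho 0.594, r 0.595 without the 2 farthest arrays) and ran against Il1r2 (Pearson r -0.503, Spearman rho -0.558, r -0.539 without the 2 farthest arrays). Il1b and Il33 were both highest in HFD-IMQ 1 and 3 and, on chow, in CD-IMQ 3 and 5. Il1b and Casp1, both of the inflammasome pathway, had a Pearson r of -0.382.

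**Figure D5:**
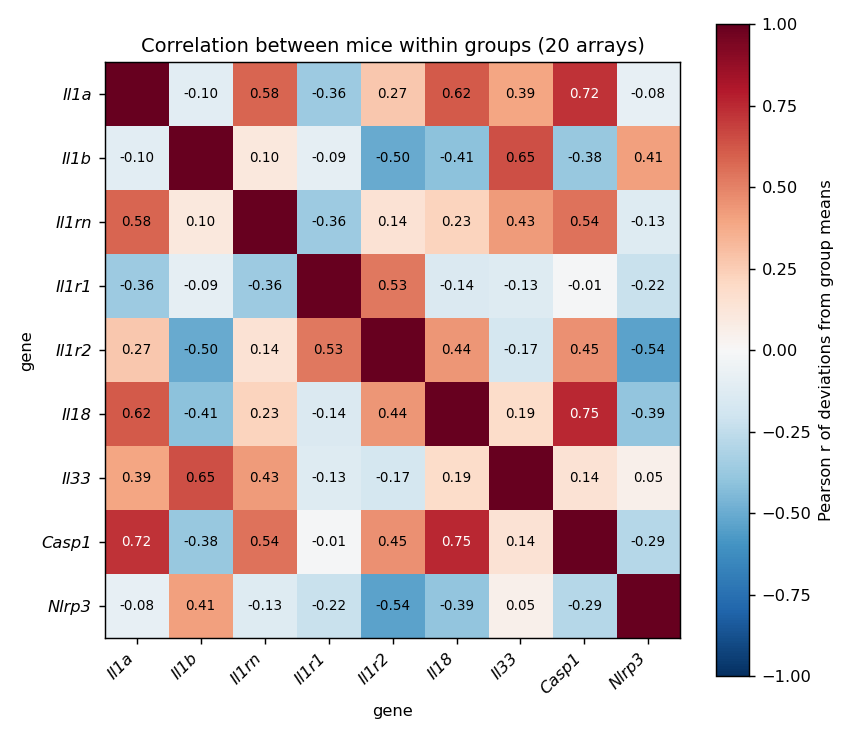
Pearson correlation of deviations from group means between the 9 genes (both axes) over 20 arrays, from -1 (blue) to 1 (red). Il1a, Il18 and Casp1 form a block of positive values between 0.62 and 0.75, while Il1b is positive with Il33 and negative with Il1r2.

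Among 12562 genes with a mean above the median of the array medians, those whose deviations were most like each gene's were named, with Pearson's r over the 20 arrays. For Il1b they were Cxcl2 (0.815), Stpg4 (0.806) and Ccl3 (0.785), of which Cxcl2 and Ccl3 encode chemokines. For Il1a they were Cd53 (0.932), Il1f8 (0.894) and Sh3kbp1 (0.877), of which Cd53 encodes a leukocyte tetraspanin and Il1f8 IL-36 beta. Those of Il18 were Kctd4 (0.901), Serpinb12 (0.895) and Kprp (0.893), and Serpinb12 and Kprp are epidermal genes. Those of Casp1 were Skint1 (0.898), Rgs18 (0.868) and Skint3 (0.862); Skint1 and Skint3 are genes of a keratinocyte and thymus family. Il1rn was most like Ehf (0.781), Denn2b (0.759) and Nup107 (0.748), of which Ehf encodes an epithelial transcription factor. Il1r1 was most like Strn3 (0.906), Luc7l2 (0.895) and Stk38 (0.88), and Il1r2 like Dpp4 (0.85), Plat (0.837) and Tef (0.837). Il33 was most like Rasgrp4 (0.832), Nfkbid (0.798) and Gmip (0.795), and Nlrp3 like Islr2 (0.846), Bsn (0.737) and Marco (0.732). The 3 printed for each gene are the highest of 12562 values.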

How the data were processed

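Total RNA of each mouse's skin, 300 ng, was labelled as biotinylated DNA and hybridised to 1 Affymetrix array, per the labels' protocols. The values are deposited on the log2 scale, and the submitters' processing notes name RMA, a background, quantile and probe summary method, and affy; their versions, and any scan batches, are not given in the sources used. RMA forces arrays to a like distribution, so changes are relative to the other genes on the array.

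Of 41345 features 23521 carried 1 gene symbol in the platform annotation, 1814 several and 16010 none. Each of 22180 genes was represented by its single-symbol feature with the highest mean, and 1082 genes had more than 1. Each of the 9 measured members had 1. Through entrez IDs 23328 features matched RefSeq, which changed 0 symbols. Group means were fitted with limma 3.58.1 (lmFit, eBayes) in R 4.3.3, without a filter on dim genes, and 5 contrasts were adjusted over all genes; the number of arrays limits the precision. Same-numbered arrays were not paired in the fit. Of their 30 pairs 4 had a residual correlation above 0.1 (range -0.217 to 0.320). Arrays of different number were not correlated in this way, so these values cannot show whether the numbers mark a pairing. On simulated data with 22180 genes for IMQ in CD-fed mice, 41.8% of log2 changes of 0.5, 97% of 1 and 100% of 2 were recovered, with 11 false calls. Only 67, 67 and 66 genes were changed by these sizes, with noise independent between genes, whereas 2424 genes were called in the data. The other contrasts were not simulated, so these rates check the fit and do not give its power here.

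The members and lists were chosen with earlier results of these data known. Named genes were the members, up to 4 called genes per list and contrast with the largest changes, 8 pathway genes followed throughout, and the 3 genes most like each called member; predicted and small RNA names were left out of the last. Zc3h12a, called among the IL-1 induced genes on both diets, ranked below these. List genes without a single-symbol feature were not analysed here. Tables and figures used Python 3.11.15, numpy 2.4.6, pandas 2.3.3, scipy 1.17.1 and matplotlib 3.10.9.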

Additional observations from a re-analysis of the deposited data

Results flagged for a closer look

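Of 36 sets of 5 mice (9 genes in 4 groups), 2 held a mouse far from the others by Dixon's criterion, which chance gives in about 1 of 20 sets. Casp1 in HFD-vehicle 4 was 6.25, with the next mouse at 5.85. Nlrp3 in HFD-IMQ 1 was 2.94, with the next at 2.45, all below the highest array median of 3.04.

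Over all 192 sets, pathway genes included, 11 held such a mouse. The sets share the same 20 arrays and are not independent, so this count cannot be set against the 1 in 20 of chance. Among the pathway genes HFD-vehicle 3 was low in 4 sets: Casp4 (4.17, next 5.02), Il1f6 (5.14, next 6.89), Mlkl (4.01, next 4.52) and Ptges (3.83, next 4.67). The same array also lay farthest from its group over all genes. Il18rap was 2.01 in HFD-vehicle 1 (next 2.48) and Il18r1 2.37 in CD-IMQ 1 (next 2.72), both near background. In CD-vehicle, Mlkl was 4.72 in mouse 4 (next 4.85), Klk7 6.78 in mouse 3 (next 7.90) and Ccl24 7.42 in mouse 4 (next 6.69).

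The interaction passed in limma for 2 of the 19 measured signalling genes, beside 0.663% of all genes. For Tnfaip3 the interaction was 1.25 ± 0.24 (adjusted p = 0.0154) and for Nfkbia 0.87 ± 0.18 (adjusted p = 0.0245), and both encode inhibitors of NF-kB signalling. The Nfkbia call ended without HFD-IMQ 2, HFD-vehicle 1 or CD-IMQ 4. Between diets both genes were called lower in HFD-vehicle (log2 change -0.96 for Tnfaip3 and -0.70 for Nfkbia). In IMQ skin neither passed by diet (limma adjusted p = 0.56 for Tnfaip3 and 0.662 for Nfkbia).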

How the results depend on the processing

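The settings tried besides leaving out arrays were the mean of all features of a gene, a further quantile normalization, centring on array medians, a filter on dim genes, an intensity trend, array weights, only the compared groups in the fit, the replicate number as a block, and an exact permutation of group labels for single genes. The permutation was held to an unadjusted p below 0.05, whereas calls were adjusted over all genes. Some uncalled diet differences passed by exact permutation. They were Il1rn, Il1r1 and Il18 in IMQ skin (permutation p = 0.0159 each) and Il1r2 in vehicle skin (permutation p = 0.0317). Il1a, Il1rn and Casp1 in HFD-fed mice, and Il1a, Il1rn, Il1r1, Il1r2 and Il18 in CD-fed mice, kept their calls and directions under each setting and without each array, as did Il1b in HFD-fed mice; no called change of the 9 genes turned its sign. With the replicate block the Il1r2 and Nlrp3 calls in HFD-fed mice ended (limma adjusted p = 0.0656 and 0.0785), and it changed no other call of the 9 genes. The dim filter removed Nlrp3 from the test. With only the compared groups, 137 genes were called between HFD-vehicle and CD-vehicle in place of 483, and 0 of the 9 in place of 2. Between HFD-IMQ and CD-IMQ 1 gene was called with the mean of features, the dim filter or the trend, in place of 0. Without single arrays, the genes called numbered 990 to 1370 for the cream in HFD-fed mice, 1741 to 2636 in CD-fed mice, 231 to 574 for diet in vehicle skin, 0 to 20 in IMQ skin and 57 to 198 for the interaction; of the 9 genes 4 to 8, 5 to 6, 0 to 2, 0 and 0 to 1 were called in the same order. Values near 0 changed sign: Casp1 in vehicle skin by diet ranged from -0.171 to 0.0119 without single arrays, and Il1r2 in IMQ skin by diet from -0.0904 to 0.108, and was 0.0381 after centring. The split of called genes moved with scaling: 1108 were higher and 1301 lower in CD-fed mice after quantile normalization, in place of 868 and 1556. Values near or below the array medians, as for Nlrp3, limit the sizes that can be given.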
